A study of Mus musculus with 36 samples.

Results

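Wild-type mouse embryonic fibroblasts (MEF) were compared with wild-type myeloid progenitors sorted from bone marrow, for the retention of introns, the choice of splice junctions and the spliced reads of each gene. The libraries were chosen by their titles: 3 fibroblast libraries and 9 progenitor libraries, 12 of the 36 in the series. The series was made to study Zrsr2, a protein needed for splicing of U12-type introns, and its relative Zrsr1. Those 12 libraries carry neither the Zrsr2 knockout nor a hairpin against Zrsr1. The same comparison in 12 libraries of Zrsr2-knockout fibroblasts and progenitors is given only among the checks at the end.

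The fibroblasts came from 3 wild-type male embryos on a C57BL/6 background, numbered 4, 5 and 6. The progenitors came from 3 wild-type male littermates on the same background, mice 1, 2 and 3, and each mouse gave 1 library of common myeloid precursors (CMP), 1 of granulocyte monocyte precursors (GMP) and 1 of megakaryocyte erythroid precursors (MEP). Ages are not given. The 3 progenitor libraries of a mouse were combined, so that every test set 3 embryos against 3 mice. Both tissues were prepared with the TruSeq kit from polyadenylated RNA. Tissue, the embryonic or later stage of the animals, growth in culture and sorting all differed together, and their parts in any difference cannot be told apart. Beside some values stand 2 libraries of cultured wild-type Lin-Kit+ bone marrow cells with a control hairpin, which were made with a different kit and entered no test.

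Most introns are removed by the major spliceosome. A small class, the U12-type introns, carries its own 5′ splice site and branch point sequences and is removed by the minor spliceosome, whose own proteins include Zrsr2, Rnpc3, Pdcd7 and several Snrnp subunits. Some introns of otherwise finished, polyadenylated RNAs are spliced late and hold the RNA in the nucleus, often in genes of splicing factors themselves. Which exons are joined is steered by regulators such as the Rbfox, Mbnl and Ptbp proteins, whose levels differ between mesenchymal and blood cells.

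Each library held counts for the same 219945 introns: reads that cross the exon-intron boundary at either end, and reads spliced across the intron. Spliced reads numbered 45458648 to 61124920 in the fibroblast libraries and 49689189 to 71576589 in the progenitor libraries. A library with more reads gives each intron a smaller counting error, and the 2 ranges overlap.

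The labelled cell types were checked against their markers first. The 13 fibroblast markers summed to 69104 to 80768 CPM (spliced read counts per gene, scaled to the same library total) in MEF and to 30.2 to 789 in the progenitors. The collagen gene Col1a1 was at 25471, 27411 and 22986 CPM in embryos 4, 5 and 6, against a median of 1.60 in the progenitors. The receptor gene Kit was at 0.915, 0.272 and 0.173 CPM in MEF and at 311 to 652 in the progenitors. The fibroblast libraries also held macrophage RNA. The 7 macrophage markers summed to 1131, 5517 and 10614 CPM in embryos 4, 5 and 6, and to 5.16 to 347 CPM in the progenitors, and no marker of the 7 was at 0 in MEF. Lysozyme (Lyz2) was at 844, 4262 and 7977 CPM and the macrophage receptor gene Adgre1 at 64.4, 299.7 and 789.7 CPM in the same order. The leukocyte gene Ptprc was at 23.6, 93.9 and 156 CPM in MEF and at 56.9 to 380 in the progenitors, with a log2 difference of -1.18 (SE 0.60) that did not pass edgeR's quasi-likelihood test (Benjamini-Hochberg adjusted p = 0.124). The sums of the fibroblast markers stood close together in the 3 embryos, and those of the macrophage markers did not. Single fibroblast markers varied more, with Dcn at 665, 1634 and 1198 CPM and Thy1 at 282, 226 and 157 CPM in embryos 4, 5 and 6. Embryo 4, with the least macrophage RNA, was also set against the 3 mice on its own, with its spread assumed to be that of the mice. In bulk samples such as these, fewer cells of a type and less RNA per cell cannot be told apart.

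Retention is the deposited percent value: the sum of exon-intron reads at the lower and higher end of an intron, as a percent of that sum and double the spliced reads. Reads at an exon-intron boundary also come from transcripts that begin or end inside the intron, and these cannot be told apart from retained introns. The 79179 introns tested had at least 20 reads in every animal and at least 10 exon-intron reads over all animals together. Each mouse summed 3 libraries, so the progenitors weighed more in the second minimum. The part of that minimum in the values below was not tested. Mean retention of these introns was 3.67, 3.50 and 3.43% in embryos 4, 5 and 6, and 4.81, 4.69 and 4.52% in mice 1, 2 and 3. The lowest of the 9 progenitor libraries was at 4.08% and the highest at 5.21%, so the 2 tissues did not overlap. The means were 3.53 ± 0.125% and 4.67 ± 0.144% (SD, n = 3 animals each), a difference of -1.14 percentage points, with p = 0.10 in the exact two-sided permutation test, the smallest value that 3 animals against 3 can give. In the cultured Lin-Kit+ libraries the same mean was 3.84 and 3.18%.

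Median retention was 1.563, 1.48 and 1.45% in the embryos and 1.95, 1.80 and 1.73% in the mice, but the lowest progenitor library, at 1.561%, was just below embryo 4. Other summaries were lower in MEF as well. The share of introns retained above 10% was 7.35, 6.68 and 6.32% in the embryos and 11.3, 10.98 and 10.5% in the mice. Among introns that no annotated exon overlaps, mean retention was 2.39 ± 0.0933% in MEF and 3.24 ± 0.0872% in the progenitors. Over all introns listed, exon-intron reads as a percent of themselves and double the spliced reads were 1.69, 1.60 and 1.61% in MEF. The same percent was 2.12 to 2.85 in the progenitor libraries, and 2.17 and 1.69 in the cultured ones. The ends of introns were covered unequally as well: the 5′ ends held 39.2, 38.5 and 38.6% of exon-intron reads in MEF and 41.1 to 42.1% in the progenitor libraries. In the cultured libraries they held 40.5 and 38.9%. The part of this end bias in the lower retention of MEF was not tested.

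**Figure D1:**
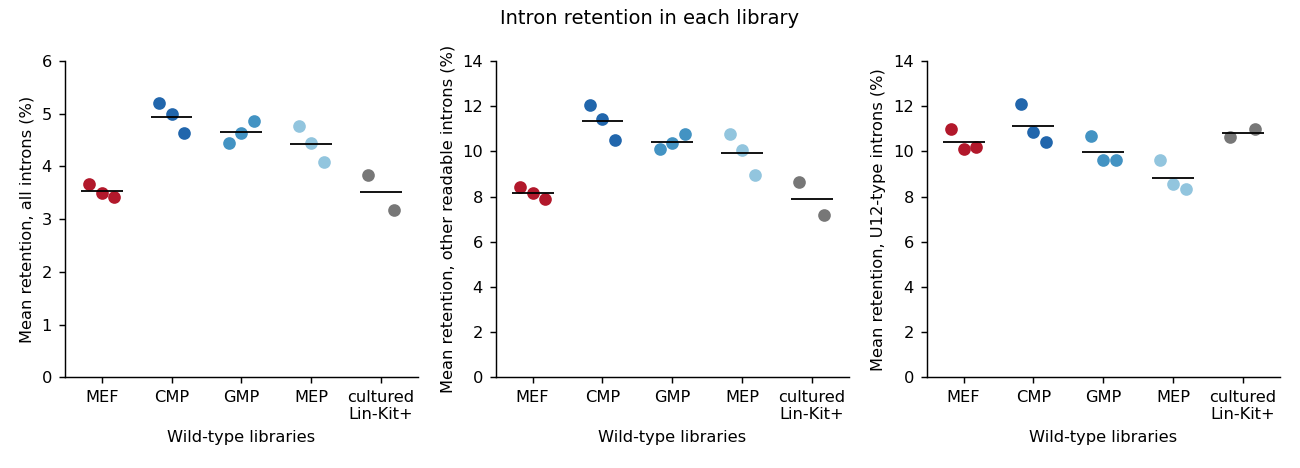
Mean retention in percent (y axes) of all introns tested, of the other introns with a readable sequence and of U12-type introns, for each wild-type library (points) by cell type, with the group mean as a line. MEF libraries lie below all 9 progenitor libraries for all introns (3.43 to 3.67% against 4.08 to 5.21%) but among them for U12-type introns.

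Intron by intron, 9392 introns were less retained in MEF and 1244 more retained, 11.9% and 1.57% of the 79179 tested (edgeR's test for differential splicing on a quasi-likelihood fit, Benjamini-Hochberg adjusted p under 0.05). The median difference in the log2 ratio of exon-intron to spliced reads was -0.36. These counts depend on that shift of the whole distribution. When each library was centred on its median intron and tested with limma, 978 introns were more and 1238 less retained. Without centring limma called 676 and 2514. The count of less retained introns was 6235 without embryo 6 and 5971 without mouse 1, and that of more retained introns was 751 without embryo 5. Embryo 4 alone against the 3 mice gave 355 more and 2375 less retained introns.

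Length and place in the transcript went with the size of the difference. Among introns without an overlapping exon, those of 301 to 1000 bases had a median log2 ratio difference of -0.44, and 12.7% of the 13988 tested were less retained in MEF. The 1621 introns over 10000 bases had a median of -0.09, and 3.21% were less retained. Last introns differed most: of 5664, 1109 (19.6%) were less and 44 (0.777%) more retained in MEF, with a median of -0.76. First introns numbered 2847, of which 180 (6.32%) were less and 72 (2.53%) more retained, with a median of -0.09. The remaining inner introns had a median of -0.29, with 8.99% less retained. Mean retention of last introns was 2.76% in MEF against 4.29% in the progenitors, and that of first introns 2.88% against 3.50%. Genes higher in MEF had 14.6% of their introns less retained there, and genes lower in MEF 10.7%.

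**Figure D2:**
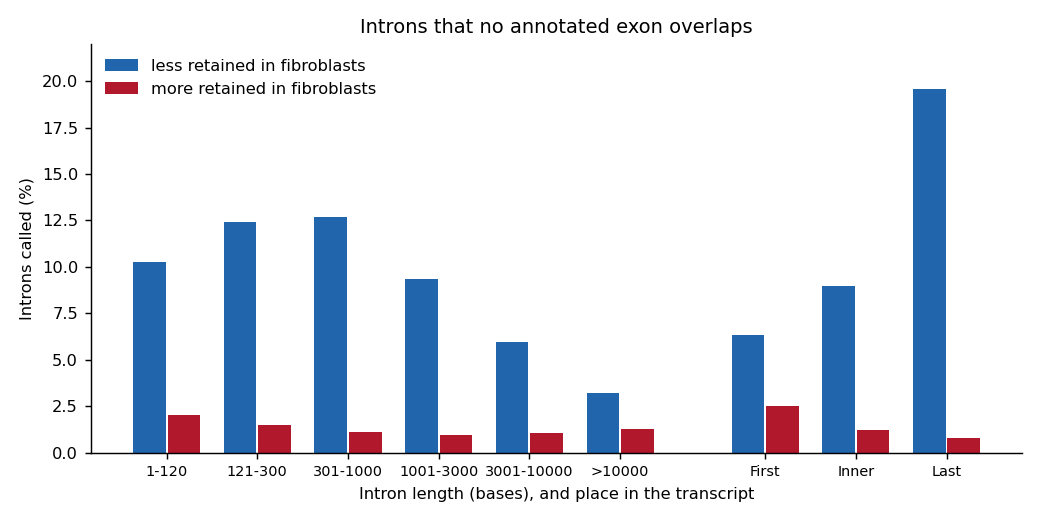
Percent of tested introns (y axis) called less retained (blue) or more retained (red) in MEF, by intron length in bases and by place in the transcript (x axis), for introns that no annotated exon overlaps. Last introns have the tallest blue bar (19.6%) and introns over 10000 bases the shortest (3.21%).

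Gene groups differed in how many of their introns were called, beside 11.9% less and 1.57% more retained of all introns tested. Of 180 introns tested in ribosomal protein genes, 80 (44.4%) were less and 14 (7.78%) more retained in MEF, where mean retention was 1.41% against 2.28%. Deeply read introns such as these have the smallest counting error. Genes of collagen processing had 50 of 119 introns (42.0%) less retained and 0 more, with means of 2.09% and 5.55%. Of 168 introns in genes of oxidative phosphorylation, 41 (24.4%) were less and 1 (0.595%) more retained. In exon junction and nonsense-mediated decay genes, 13 of 216 introns (6.02%) were less retained, a share below that of all introns. The 5 more retained there (2.31%) stood above the 1.57% of all introns.

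As a set, the readable U12-type introns were not lower in MEF. An intron was called U12-type by its sequence: a first stretch matching RTATCCTT with at most 1 mismatch, an end in AG or AC, and a branch point match to TCCTTAAC with at most 2 mismatches in the last 40 bases. Sequence was readable only where an exon of another transcript covers the intron, so the 55 U12-type introns tested are a selected part of the class, and they were set beside the 6974 other introns readable in the same way. The 55 had a mean retention of 11, 10.1 and 10.2% in embryos 4, 5 and 6 and of 10.8, 9.69 and 9.44% in mice 1, 2 and 3. The embryos and the mice overlapped (10.4 ± 0.497% against 9.98 ± 0.722%, SD, n = 3 each, exact permutation p = 0.40). The other readable introns were at 8.44, 8.16 and 7.89% in the embryos and at 10.98, 10.6 and 10.1% in the mice. In each embryo the U12-type mean was thus above the mean of the others, by a ratio of 1.30, 1.24 and 1.29, whereas in the mice the ratio was 0.984, 0.911 and 0.936. The 9 progenitor libraries ranged from 0.852 to 1.05 and did not reach the fibroblasts. The exact permutation p of this ratio was 0.10, again the smallest possible, and the 2 cultured libraries had ratios of 1.23 and 1.53.

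Of the 55 U12-type introns, 8 were more and 5 less retained in MEF, with a median log2 ratio difference of 0.13. Of the 6974 others, 158 (2.27%) were more and 1534 (22%) less retained, with a median of -0.54. The 39 introns with an exact 5′ site had a median of 0.45, with 8 more and 2 less retained. The 16 with 1 mismatch had a median of -0.10, with 0 more and 3 less retained (edgeR as above). Introns were also set beside others of similar retention in the progenitors. Between 0 and 5%, 28 U12-type introns had a median of 0.37 and 3132 others a median of -0.39. Between 5 and 20%, the medians were 0.10 for 19 U12-type introns and -0.62 for 2810 others, and above 20% they were -0.51 for 8 and -0.78 for 1032. The count of less retained U12-type introns was 1 without embryo 6, 1 without mouse 1, 2 without mouse 3 and 3 without any other animal.

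The ends of 8 of the 13 called U12-type introns are shown because such ends define the class; those of Rpl4, Tcp1, Tns1, Sart3 and Derl2 are not shown. They were read from GENCODE M21 transcripts (mm10, 5′ to 3′ on the strand of the gene). Capitals mark the 5′ splice site stretch in the first 12 bases and the branch point match in the last 40.
Arl16 first bases: ATATCCTTccgc
Arl16 last bases: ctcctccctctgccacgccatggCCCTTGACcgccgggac
Exosc5 first bases: GTATCCTTtccc
Exosc5 last bases: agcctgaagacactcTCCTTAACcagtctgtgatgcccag
Hnrnpl first bases: ATATCCTTttct
Hnrnpl last bases: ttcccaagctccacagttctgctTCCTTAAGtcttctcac
Pola2 first bases: GTATCCTTttct
Pola2 last bases: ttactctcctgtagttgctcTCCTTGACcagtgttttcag
Cgrrf1 first bases: GTATCCTTtttc
Cgrrf1 last bases: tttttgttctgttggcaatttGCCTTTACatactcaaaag
E2f6 first bases: ATATCCTTccat
E2f6 last bases: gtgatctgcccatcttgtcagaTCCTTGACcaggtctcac
Lztr1 first bases: GCATCCTTttac
Lztr1 last bases: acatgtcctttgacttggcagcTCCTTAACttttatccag
Tepsin first bases: GTATCCTTctgc
Tepsin last bases: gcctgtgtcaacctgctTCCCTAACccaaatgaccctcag
The first 6 of these introns were more retained in MEF and the last 2 less. Those of Arl16, Hnrnpl and E2f6 begin with AT and end with AC.

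The U12-type introns named here were chosen after their values were seen, as all that were called. Arl16, a small GTPase gene, had the largest rise. Its intron (chr11:120467241-120467362, 122 bases, minus strand) was retained at 29.4, 26.6 and 33.7% in the embryos and at 1.75 to 12.4% in the progenitor libraries, median 4.42%. The tissues did not overlap, the log2 ratio rose by 3.05 (edgeR adjusted p = 3.52e-05), and the cultured libraries were at 20 and 11.2%, the first between the tissues and the other within the progenitor range. Pola2 encodes a subunit of DNA polymerase alpha. Its intron (chr19:5958876-5959032, minus strand) was at 6.67, 9.01 and 5.15% in the embryos and at 0.364 to 3.74% in the progenitors, a rise of 1.87 (edgeR adjusted p = 5.30e-03). In Hnrnpl, the gene of an RNA-binding splicing repressor, the intron chr7:28814288-28815098 was at 8.32, 7.04 and 7.85% against 2.38 to 5.56% (rise of 0.85, edgeR adjusted p = 3.19e-03). A further intron of Hnrnpl that is not of this class, chr7:28820747-28821215, was at 0.140, 0.262 and 0.414% in MEF and at 0.754 to 1.502% in the progenitors, the other direction (-2.11, edgeR adjusted p = 6.68e-05).

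Exosc5 encodes a core subunit of the RNA exosome. Its intron (chr7:25664449-25665420) was at 1.28, 2.06 and 3.64% in MEF against 0.0286 to 0.669%. In Cgrrf1, a RING finger gene, the intron chr14:46846052-46846184 was at 13.8, 7.73 and 8.91% against 0.426 to 5.26%. The introns of Rpl4 (1.92, 1.09 and 1.21% against 0.543 to 1.003%) and E2f6 (11.3, 11.3 and 11.5% against 2.46 to 11.04%) stood just above the highest progenitor library. E2f6, a transcriptional repressor gene, turned direction when only the lower of both ends was counted (log2 ratio difference of -0.47). In Tcp1, a chaperonin gene, 2.26 to 3.14% overlapped 0.744 to 2.46%. Of the 5 introns less retained in MEF, those of Lztr1 and Tepsin did not overlap: Lztr1, a gene of a ubiquitin ligase adaptor, was at 5.08, 5.71 and 5.36% against 6.44 to 21.4%, and Tepsin, of an adaptor complex protein, at 26.2, 20.5 and 28.7% against 40.3 to 63.2%. The other 3, in Sart3, Derl2 and Tns1, overlapped between tissues.

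**Figure D3:**
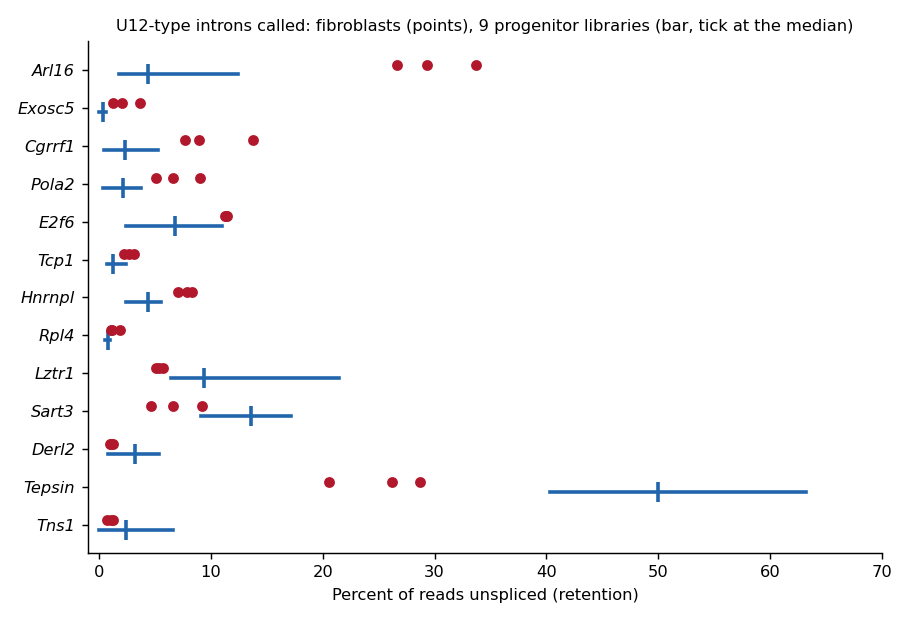
Retention in percent (x axis) of the 13 called U12-type introns, by gene (y axis), with the 3 MEF libraries as red points and the 9 progenitor libraries as a blue bar from the lowest to the highest with a tick at the median. Arl16 has the widest gap upward (26.6 to 33.7% against 1.75 to 12.4%) and Tepsin the widest downward.

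Among introns that no exon overlaps and with at least 100 reads in every animal, those with the largest differences in percent were named. Polr2b, a core subunit of RNA polymerase II, had an intron (chr5:77348419-77349079) retained at 29.4, 31.4 and 28.3% in MEF and at 5.03 to 9.64% in the progenitors, with no overlap (rise of 2.49, edgeR adjusted p = 5.53e-07). In Copg2, a coatomer subunit gene, the intron chr6:30749900-30750537 was at 24.2, 23.98 and 25.1% against 2.09 to 5.38% (rise of 3.14, edgeR adjusted p = 8.94e-07). Reads covered 100% of that intron in MEF and 21.4% of it in the progenitors. The cultured libraries stood with the progenitors in Copg2, at 1.64 and 1.96%. Med12, of the Mediator kinase module, was at 49.4, 44.8 and 40.2% against 14.6 to 31.1%, and Mtx1, a mitochondrial import gene, at 21.7, 26.2 and 23.2% against 5.35 to 10.05%. Introns of Eml3, Brwd1, Stx3, Pus10, Atg3 and Nfxl1 completed the 10 named upward, with means in MEF from 9.60 to 30.01% and in the progenitors from 1.49 to 14.4%.

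The downward differences were larger. In Iffo2, a gene of an intermediate filament family member, the intron chr4:139614119-139614930 was retained at 1.96, 4.44 and 5.26% in MEF and at 71.8 to 96.4% in the progenitors, median 89.8% (-7.75, edgeR adjusted p = 1.46e-07). The cultured libraries resembled the progenitors there, at 76.1 and 64.7%. Maff, a small Maf transcription factor gene, was at 9.15, 6.33 and 18.9% against 69.7 to 100%, with 74.7 and 83.9% in the cultured cells. In Ecm1, a matrix protein gene, the intron chr3:95736222-95736471 was at 3.57, 2.31 and 2.52% against 17.5 to 80.3% (-5.03, edgeR adjusted p = 2.53e-06). Here the cultured libraries stood with MEF, at 6.45 and 2.12%. Ggcx, the vitamin K-dependent carboxylase gene, was at 2.46, 4.53 and 4.55% against 20.3 to 69.5%. The introns of Tiam2, Slc31a2 and Sh3bp5 ranged widely among the progenitors, with MEP the highest (means of 91.4, 71.1 and 62.5%) and GMP the lowest (16.2, 24.6 and 20.5%). In none of the 20 introns chosen in this way did the tissues overlap, which is no finding, since the naming rule asked for the largest differences and for the end with fewer reads to differ without overlap.

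A list of 35 genes known to hold a late-spliced intron, many of them splicing factor genes, had 351 introns of any kind tested. Of these 47 (13.4%) were less and 24 (6.84%) more retained in MEF, beside 11.9% and 1.57% of all introns. The share of less retained introns was thus near that of all introns. Srsf5, an SR protein gene, was retained at 15.2, 19.6 and 13.9% in its intron chr12:80947866-80949094 in MEF and at 26.6 to 56.9% in the progenitors (-2.08, edgeR adjusted p = 1.25e-04). The related Srsf6 was at 12.3, 15.4 and 11.1% against 16.9 to 56.3%. In both, CMP was highest (means of 51.2 and 50.8%) and MEP lowest (35.0 and 25.6%), and the cultured libraries were within or below the range of MEF (7.22 and 5.08% in Srsf5, 12.2 and 10.4% in Srsf6). Srrm2, a scaffold of nuclear speckles, was at 4.64, 8.93 and 5.20% against 14.7 to 33.5%. The hnRNP gene Hnrnpa2b1 was at 24.04, 32.1 and 28.5% against 44.1 to 75.5%, and Slc25a28, a mitochondrial iron importer, at 25.1, 26.7 and 29.4% against 40.1 to 53.7%. An annotated exon overlaps each of the introns named in this paragraph. In Srsf6 the means were 12.9% in MEF and 38.4% in the progenitors, but 7.70 and 14.3% at the lower of both ends. In Srsf5 they were 16.2 and 44.2%, and 14.3 and 41.1% at the lower end.

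Single introns went the opposite way in genes of kinases that phosphorylate SR proteins. Of the 88 introns tested in all such genes, 10 (11.4%) were less and 4 (4.55%) more retained in MEF. The shares over all introns were 11.9% and 1.57%. In Clk1 1 intron was retained at 14.4, 11.6 and 12.7% in MEF against 1.69 to 7.08% (rise of 1.42, edgeR adjusted p = 3.37e-03). Clk4 was at 11.9, 13.2 and 17.9% against 0.254 to 9.68%, and Clk2 at 8.02, 7.08 and 4.08% against 1.53 to 2.75%. Srsf11 was at 42.6, 45.4 and 37.7% against 11.2 to 33.6%, and Rbm39, a U2AF-related splicing factor, at 2.68, 3.12 and 2.43% against 0.0206 to 1.26%. An annotated exon overlaps the introns of Clk1, Srsf11 and Rbm39, but not those of Clk2 and Clk4. The 5 introns did not overlap between tissues. In 63 named introns (these, the 20 above and the U12-type ones) limma on averaged log2 ratios kept the call of 25, with the direction unchanged in all 63.

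Junction use was the share of spliced reads that a junction takes at a splice site it shares with another. Over 7596 junctions at 3716 shared sites, 1218 junctions (16%) at 963 sites (25.9%) and in 643 genes were called (edgeR, per-junction test, Benjamini-Hochberg). Alternative first exons were called at 248 of 558 sites (44.4%), against 22.3% and 21.4% of the sites at the 2 sides of cassette exons, which are included or skipped whole. Alternative last exons were called at 42 of 187 sites (22.5%). Cassette exons tested on both sides numbered 1152, of which 69.97% had a length that is a multiple of 3. An exon counted as called when its inclusion junction was called on either side. A call of the skipping junction alone did not count here, whereas the site counts above took a call of any junction. Of the 201 called, 81.1% had such a length: 126 were more included in MEF (84.9%) and 75 less (74.7%). The 2 sides of an exon share it and are not separate findings.

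The Fyn kinase gene holds a pair of exons of which a transcript uses 1, giving the form known from brain and other tissues or the form known from T cells and other blood cells. The junction into the upstream exon took 93.3, 83.8 and 84.8% of the reads in MEF and 0 to 20.3% in the progenitors, median 8.77% (rise of 6.06, edgeR adjusted p = 2.55e-06). The junction out of the downstream exon took 12.8, 13.5 and 19.5% in MEF and 87.5 to 100% in the progenitors. The cultured cells used the downstream exon as the progenitors did, at 94.6 and 100%. Both exons are shown in capitals between the last 12 bases of the exon before and the first 12 of the exon after, which they share (chr10:39529437-39529601 and chr10:39529919-39530074, plus strand, GENCODE M21 transcripts).
Fyn upstream exon: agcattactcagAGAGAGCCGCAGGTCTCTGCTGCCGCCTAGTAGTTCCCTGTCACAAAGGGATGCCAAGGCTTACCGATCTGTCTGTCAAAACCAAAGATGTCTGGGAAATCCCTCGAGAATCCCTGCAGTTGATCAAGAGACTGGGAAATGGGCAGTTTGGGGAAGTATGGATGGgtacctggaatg
Fyn downstream exon: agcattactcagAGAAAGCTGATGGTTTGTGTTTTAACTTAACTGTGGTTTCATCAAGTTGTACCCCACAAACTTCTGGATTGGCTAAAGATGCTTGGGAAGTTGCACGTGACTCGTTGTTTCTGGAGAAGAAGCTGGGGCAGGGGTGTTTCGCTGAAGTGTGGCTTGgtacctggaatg
The upstream exon has 165 bases and the downstream one 156, both multiples of 3.

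Some cassette exons of different lengths and sizes of difference, chosen after their values were seen, are shown in the same way, with the exon in capitals and 12 bases of its neighbours on each side. Of those shown, only the exon of Mbnl1 has a length that is not a multiple of 3. The exons of Fam126a (298 bases) and Fmnl3 (100 bases), with values below, are not shown and are not multiples of 3 either.
Cttn (chr7:144450978-144451088, minus strand): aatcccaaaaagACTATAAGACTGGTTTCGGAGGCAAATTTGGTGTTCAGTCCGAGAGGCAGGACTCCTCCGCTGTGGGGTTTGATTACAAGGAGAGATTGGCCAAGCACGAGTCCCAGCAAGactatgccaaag
Golim4 (chr3:75902401-75902484, minus strand): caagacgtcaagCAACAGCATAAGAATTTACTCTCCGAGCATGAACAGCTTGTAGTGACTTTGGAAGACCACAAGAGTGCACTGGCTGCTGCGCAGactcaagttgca
Abi1 (chr2:22950184-22950270, minus strand): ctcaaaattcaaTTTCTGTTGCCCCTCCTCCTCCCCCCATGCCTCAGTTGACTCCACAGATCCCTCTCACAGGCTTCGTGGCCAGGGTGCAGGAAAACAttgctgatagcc
Tsc2 (chr17:24606224-24606352, minus strand): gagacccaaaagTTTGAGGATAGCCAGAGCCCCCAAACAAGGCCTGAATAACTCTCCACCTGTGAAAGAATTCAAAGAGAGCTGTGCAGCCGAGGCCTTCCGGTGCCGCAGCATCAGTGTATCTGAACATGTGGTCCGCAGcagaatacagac
Myo9b (chr8:71358616-71358663, plus strand): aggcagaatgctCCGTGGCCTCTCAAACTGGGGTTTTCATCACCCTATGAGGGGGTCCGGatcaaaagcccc
Picalm (chr7:90194273-90194296, plus strand): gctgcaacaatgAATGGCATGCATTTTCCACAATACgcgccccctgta
Mbnl1 (chr3:60622146-60622240, plus strand): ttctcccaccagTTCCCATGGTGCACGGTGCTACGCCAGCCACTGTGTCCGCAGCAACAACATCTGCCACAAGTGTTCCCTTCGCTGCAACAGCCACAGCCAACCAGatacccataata

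Cttn encodes cortactin, an actin-binding protein with a row of repeats, and the 111-base exon adds one of them. Its inclusion, read at the 5′ splice site before it, was 88.7, 85.1 and 85.0% in MEF and 0 to 10.7% in the progenitors, median 2.51% (rise of 7.31, edgeR adjusted p = 1.05e-09), and 14.3 and 1.28% in the cultured cells. Golim4, a Golgi transport protein gene, included its 84-base exon at 90.7, 90.0 and 90.3% in MEF and at 1.90 to 6.67% in the progenitors. Tsc2, whose protein restrains mTORC1, included its 129-base exon at 86.2, 76.7 and 68.0% against 0 to 8.43%. For Abi1, a subunit of the WAVE actin-nucleation complex, skipping of the 87-base exon fell to 20.5, 36.1 and 43.1% in MEF from 95.4 to 100% in the progenitors (-7.14, edgeR adjusted p = 1.60e-04). Embryo 4 held the least macrophage RNA. Among the embryos it had the most inclusion of the exons of Fyn, Cttn, Tsc2, Abi1, Fam126a, Fmnl3, Myo9b, Nfya and Flna. It had the least of those of Picalm, Clstn1 and Mff. For Golim4 the order depended on the side, and embryo 4 had the most inclusion at the 3′ splice site after the exon. At the 5′ site before it, skipping was 11.3, 10.8 and 8.26% in embryos 4, 5 and 6, so embryo 4 had the least inclusion there. The part of macrophage RNA in these values was not tested.

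Fam126a, a gene of a phosphatidylinositol kinase complex, used the junction to its 298-base exon at 93.0, 84.3 and 76.6% against 0 to 2.19%. Fmnl3, a formin gene, used the junction to its 100-base exon at 95.2, 92.4 and 93.0% against 0 to 41.1%, with MEP the lowest at a mean of 2.08%. Myo9b, an unconventional myosin gene, included 48 bases at 59.4, 53.1 and 45.2% against 0 to 1.31%. Nfya, a CCAAT-binding factor gene, included 87 bases at 82.5, 71.1 and 69.1% against 6.197 to 25.4%. Small exons shifted by less. The 24 bases of Picalm, a clathrin adaptor gene, were at 11.5, 16.5 and 14.9% against 0 to 2.92%, and those of the actin crosslinker Flna at 17.6, 17.2 and 15.9% against 5.75 to 10.5%. Clstn1, a cargo adaptor gene, included 30 bases at 14.1, 15.7 and 19.5% against 0 to 2.70%.

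Other exons were used less in MEF. The 12-base exon of Dnm2, the ubiquitous dynamin, was at 4.41, 3.17 and 3.43% against 8.90 to 23.1%. The 60-base exon of the spectrin gene Sptan1 was at 13.3, 12.3 and 12.3% in MEF, against means of 50.7 and 49.3% in CMP and GMP. MEP spanned 0 to 42.9% (mean 14.3%), so the tissues overlapped there. Map3k7, the kinase TAK1, included 81 bases at 19.5, 18.2 and 15.7% against 23.9 to 80.9%, and Opa1, a mitochondrial fusion gene, 54 bases at 7.77, 11.3 and 9.21% against 11.7 to 23.2%. In the splicing regulator gene Mbnl1, skipping of a 95-base exon was at 32.2, 26.7 and 33.0% in MEF and at 3.596 to 9.19% in the progenitors (rise of 2.93, edgeR adjusted p = 2.20e-07). Its relative Mbnl2 included 54 bases at 9.16, 9.47 and 8.53% against 14.3 to 38.1%. The other way, skipping of 78 bases in Dnm1l, the dynamin of mitochondrial fission, was lower in MEF, at 4.71, 4.49 and 4.35% against 11.8 to 30.7%.

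Alternative first exons gave the widest separations. Il1rl1, an interleukin receptor gene, has a distal and a proximal promoter. The junction from the distal exon took 0, 0 and 0.287% in MEF and 98.6 to 100% in the progenitors (edgeR adjusted p = 1.05e-09). Lsp1, an actin-binding protein of leukocytes, has a shorter mesenchymal form. The junction from its proximal first exon took 96.3, 91.8 and 92.8% in MEF and 0 to 5.26% in the progenitors (edgeR adjusted p = 4.22e-11). The spectrin gene Sptbn1 began at its distal exon in 98.3, 99.2 and 99.0% against 0 to 1.30%, and the tropomyosin gene Tpm1 in 92.2, 87.3 and 86.8% against 0 to 0.831%. The distal Tpm1 exon belongs to the long, stress-fibre tropomyosins and the proximal one to short forms. The adducin gene Add3 used its proximal exon at 1.42, 1.09 and 0.629% in MEF, at means of 81.7 and 81.3% in CMP and MEP, and at 29.5% in GMP. The scaffold gene Nedd9 used the distal exon at 10.5, 1.99 and 11.1% against 37.5 to 100%, and Heg1, a membrane mucin gene, at 94.2, 97.8 and 100% against 7.50 to 36.4%. The cultured Lin-Kit+ cells stood with the progenitors at Il1rl1 (99.9 and 100%), Lsp1 (0 and 0%), Tpm1 (0 and 0% distal) and Nedd9 (83.97 and 84.3%).

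**Figure D4:**
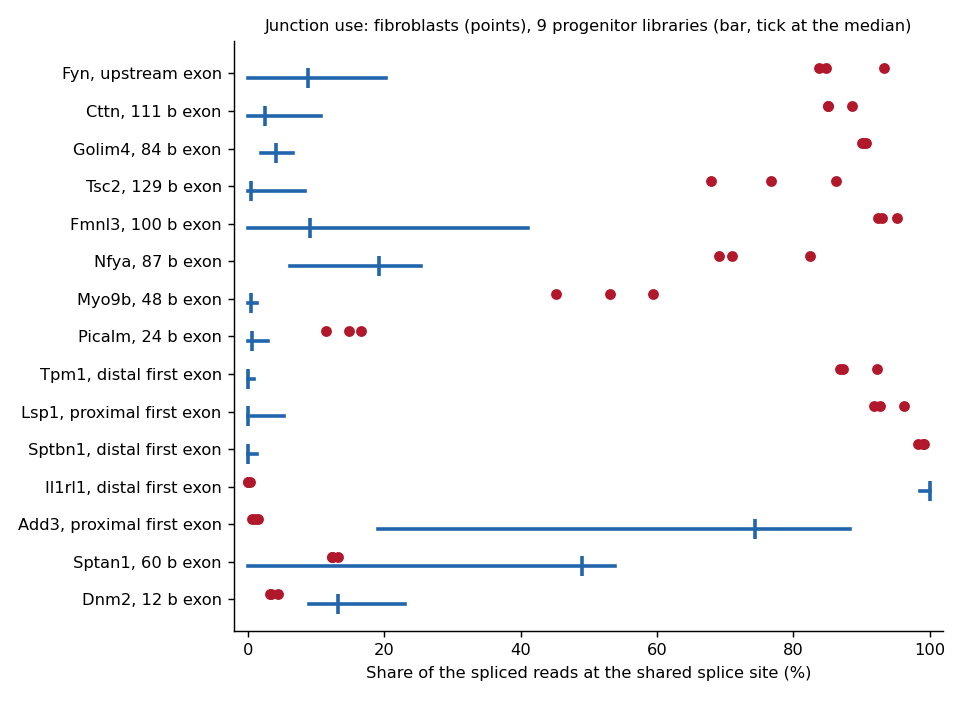
Share in percent (x axis) of the spliced reads at a shared splice site taken by the junction into or out of the named exon (y axis), with the 3 MEF libraries as red points and the 9 progenitor libraries as a blue bar from the lowest to the highest with a tick at the median. The MEF points lie outside the bar in every row except Sptan1.

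A list of 110 genes with known splice choices was chosen with earlier results of these data known. Of these, 66 had a shared site tested and 45 a junction called, beside 1936 and 643 over all genes. Beside those above, Lrrfip1 used the longer junction, past an alternative last exon, at 52.1, 46.9 and 45.1% in MEF and at 0 to 3.47% in the progenitors. The next intron of Lrrfip1 (chr1:91120191-91122421) was among the introns named above, at 1.25, 4.52 and 2.74% retained against 28.9 to 51.1%. Actinin (Actn1) took a shorter of the alternative introns at 29.5, 28.5 and 30.3% against 0 to 2.96%, and Lamp2, a lysosomal membrane gene, the distal last exon at 47.9, 51.2 and 54.8% against 25.4 to 35.9%. Calls for Adam15, Plod2, Tpm2, Numb, Cd44 and Ezh2 came with overlapping libraries.

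Known regulators of splice choice also differed in level between the tissues. Whether they act on the junctions above was not tested. Over all genes, 16958 were tested and 5792 (34.2%) were higher and 5734 (33.8%) lower in MEF (edgeR quasi-likelihood test, Benjamini-Hochberg), with a median log2 difference of -0.04. These shares are the background against which the gene lists below stand. Among the 8453 genes with a mean above 10 CPM, 2685 were higher and 4286 lower. The share lower in MEF was thus greater among well-read genes, to which many members of these lists belong. Of 39 tissue splicing regulators 37 were tested, and 14 were higher and 18 lower. Rbfox2 was at 148, 130.2 and 132 CPM in MEF and at 0.125 to 1.49 in the progenitors (log2 difference of 7.48, SE 0.36, adjusted p = 7.91e-06). Mbnl2 was at 157, 139 and 129 CPM against 14.1 to 49.3, whereas Mbnl1 was at 83.2, 85.6 and 101.7 CPM against 233 to 377. The pair thus moved in opposite directions, by 2.18 (SE 0.08) and -1.67 (SE 0.10).

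Ptbp1, the polypyrimidine tract binding repressor, was at 366, 253 and 268 CPM in MEF against 601 to 721 (-1.11, SE 0.13, edgeR adjusted p = 3.31e-04), and its haematopoietic relative Ptbp3 at 87.1, 89.9 and 109 CPM against 159.5 to 275. Rbm38, a p53-regulated RNA-binding protein that also drives late erythroid splicing, was at 2.65, 2.35 and 3.77 CPM against 29.2 to 41.8. Rbpms, of smooth muscle and other mesenchyme, was at 65.8, 59.9 and 55.5 CPM and reached 46.1 in the progenitors, but 1.12 on average in MEP. The neuronal regulators Nova1 (2.10, 1.89 and 2.93 CPM) and Celf4 (2.88, 3.93 and 3.79 CPM) were low in MEF, and Nova1 had no read in the progenitors. Rbm10, Mbnl3, Elavl1, Raver1 and Hnrnpll were lower in MEF and Khdrbs3, Raver2 and Rbm47 higher. Rbm47 was ordered over the embryos as the macrophage markers were (2.08, 5.73 and 10.4 CPM), and with embryo 4 alone its log2 difference of 1.24 was not called. Quaking (Qk) differed by 0.22 and lost its call under several settings.

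The core machinery was lower in MEF per spliced read. All 14 listed proteins of the minor spliceosome were tested; 10 were lower and 0 higher, with a median log2 difference of -0.73, beside -0.32 over the 8453 genes with a mean above 10 CPM. Pdcd7 was at 5.42, 5.64 and 4.27 CPM against 12.9 to 19.7 (-1.60, SE 0.15, edgeR adjusted p = 1.04e-04), Snrnp25 at 12.9, 13.3 and 16.1 against 28.8 to 36.01, and Rbm48 at 2.47, 1.51 and 2.34 against 4.76 to 10.2. Rnpc3, which bridges the minor snRNPs, overlapped at 28.3, 21.2 and 18.2 CPM against 25.3 to 48.3 and was not called with embryo 4 alone. Zrsr2 itself was at 29.9, 25.9 and 24.6 CPM in MEF and 24.5 to 35.3 in the progenitors, a difference of -0.04 that was not called. Txnl4b, Zcrb1 and Armc7 were not called either. The minor spliceosome proteins and the relative retention of U12-type introns are values from the same libraries, and a link between them was not tested.

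The 10 genes of U2AF and branch site recognition were all lower (median of -0.95), with U2af1 at 189.6, 149.5 and 149 CPM against 405 to 556. SR proteins had 14 of 16 lower and 1 higher, with Srsf7 at 147, 108 and 132 CPM against 499 to 662 and Srsf3 at 220.3, 151 and 172 against 527 to 701. The hnRNPs had 18 of 19 tested lower and 0 higher (21 listed, median of -1.01), with Hnrnpa3 at 756, 589 and 632 CPM against 1618 to 1976. The nuclear exosome and its cofactors had 14 of 14 lower (median of -1.32). Exosc5, whose U12-type intron was more retained in MEF, was at 18.1, 15.7 and 17.2 CPM against 104 to 170.2 (-2.78, SE 0.08, edgeR adjusted p = 1.69e-06). Of 17 genes of nonsense-mediated decay and the exon junction complex, 14 were lower and 1 higher, and of 9 SR protein kinases 6 and 1. Clk1, with the more retained intron in MEF, was at 87.1, 70.5 and 57.9 CPM against 139 to 350. Genes with a detained intron had 31 of 34 tested lower and 1 higher, a count in which SR and hnRNP genes recur.

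**Figure D5:**
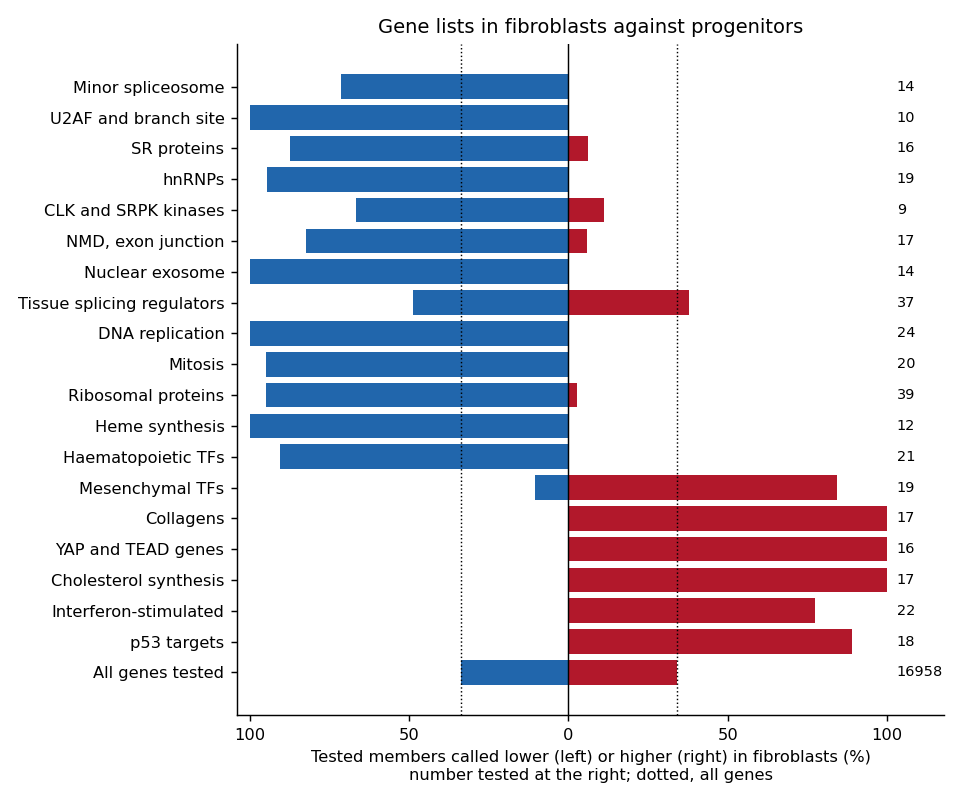
Percent of the tested members of each gene list (y axis, number tested at the right) called lower (blue, leftward) or higher (red, rightward) in MEF, with the shares over all genes as dotted lines (33.8 and 34.2%). Lists of RNA processing, replication and blood genes extend to the left and lists of matrix and mesenchymal genes to the right.

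The genes that part the tissues furthest were those of mesenchymal and of blood identity. Highest in MEF by the naming rule were Tead1, the partner of the coactivator Yap1 (182, 109 and 108 CPM, no read in any progenitor library), the Wnt modulator Sfrp1 (42.7, 83.6 and 98.4 CPM, likewise none), the oncostatin M receptor Osmr (187, 237 and 193 CPM against at most 0.0470), the homeobox gene Prrx1 (95.1, 74.5 and 70.2 CPM against at most 0.0157) and the collagen crosslinker Lox (700.1, 1099 and 925 CPM against at most 0.329). The chemokine Cxcl1 was at 113, 201 and 175 CPM against at most 0.0545. Lowest in MEF were Flt3, the receptor of early progenitors, with no read in MEF and 2.99 to 480.3 CPM in the progenitors, and the granule genes Mpo (0.434, 0.204 and 1.56 CPM against 21.2 to 22271), Elane and Ctsg. The blood group gene Kel and the mast cell protease Cpa3 were among the others.

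Matrix genes moved as a block: 17 of 17 collagens, 19 of 19 collagen-processing genes, 22 of 22 matrix glycoproteins and 15 of 15 tested matrix proteases (17 listed) were higher. Fibrillin (Fbn1) was at 1226, 1323 and 1586 CPM against 0.345 to 4.78 and Sparc at 3915, 4321 and 3875 against 0 to 3.07. Among fibroblast integrins 9 of 9 were higher, with Itgav at 349, 322 and 271 CPM against 2.88 to 27.8. Of 9 leukocyte integrins 5 were lower and 1 higher, with Itga2b at 12.03, 13.4 and 13.96 CPM against 14.2 in the lowest MEP and 878 in the highest CMP library. Actin and tropomyosin genes had 22 of 27 tested higher and 2 lower (28 listed). Actn1, whose splicing also differed, was at 1073, 900 and 809 CPM against 2.36 to 64.9.

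Mesenchymal transcription factors had 16 of 19 tested higher and 2 lower (26 listed), and haematopoietic ones 0 higher and 19 of 21 lower (25 listed), with Gata1 at 0.274, 0.255 and 0.217 CPM against 2.21 to 207. Hox genes of all clusters were present in MEF: in the C and D clusters 7 of 7 tested were higher in each, of 9 listed in each. In the A cluster 6 of 8 tested were higher and 1 lower (11 listed). In the B cluster 6 of 7 tested were higher and 0 lower (10 listed). Hoxc10 was at 2.17, 1.78 and 1.54 CPM and Hoxa11 at 1.83, 1.38 and 1.99 CPM, with no read in the progenitors. The 14 tested imprinted growth genes (17 listed) were higher, with Mest at 599, 452 and 429 CPM against 0 to 0.346. Of 10 tested oncofetal genes and let-7 targets (12 listed), 4 were higher and 4 lower in MEF. Among them, the oncofetal RNA-binding proteins Igf2bp1, Igf2bp2 and Igf2bp3 were at 20.4 to 33.3, 151 to 176 and 75.8 to 85.6 CPM against at most 0.673, 1.71 and 0.719. Of the YAP and TEAD genes 16 of 16 tested were higher (17 listed), with Yap1 at 107, 101 and 92.4 CPM against 0 to 0.218.

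Proliferation genes were lower in MEF. All 24 tested DNA replication genes (27 listed) were lower, with a median of -2.16 and Mcm2 at 74.2, 58.8 and 71.1 CPM against 317 to 508. Of 20 mitosis genes 19 were lower, with Top2a at 321, 220.1 and 306 CPM against 921 to 1411. Inhibitors and targets of p53 stood the other way. Of 18 p53 targets 16 were higher and 0 lower, with Mdm2 at 141, 139 and 147 CPM against 35.7 to 58.7, and the cell cycle inhibitor Cdkn1a was at 29.9, 40.2 and 35.99 CPM against 0.0627 to 2.40. Ribosomal protein genes had 37 of 39 tested lower and 1 higher (40 listed, median of -0.97).

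Metabolic lists split. All 17 tested cholesterol synthesis genes (18 listed) were higher in MEF, with a median of 2.52 and Cyp51 at 350.3, 224 and 219 CPM against 14.6 to 23.4. All 12 tested heme synthesis genes (13 listed) were lower. Oxidative phosphorylation had 21 of 29 lower and 3 higher (30 listed). Glycolysis genes went both ways, with 11 of 24 higher and 10 lower: pyruvate kinase (Pkm) was at 1721, 1805 and 1897 CPM against 8.14 to 1335, and the hexokinase Hk1 at 109, 119.98 and 133 against 250.3 to 795. Interferon-stimulated genes had 17 of 22 tested higher and 0 lower (23 listed), with Isg15 at 61.7, 44.2 and 54.4 CPM against 0.946 to 5.45. Ifit3 was at 8.92, 7.39 and 7.74 CPM against at most 0.125. The part of macrophage RNA in this list was not tested.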

How the data were processed

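PolyA RNA of 3 fibroblast and 9 progenitor libraries was compared. The deposited tables give, per intron, raw counts of exon-intron reads at each end and of spliced reads, and the percent retained, deposited by the authors, whose formula (exon-intron reads as a percent of themselves and double the spliced reads) was recovered from the tables. The fraction of each intron covered by reads is also the authors' deposited value. The genome build is mm10, per the submitters' processing notes; which tool aligned or counted is not given in the sources used here. Strand is not recorded, so overlapping and antisense genes, and near-identical copies, are uncertain.

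All 219945 introns matched GENCODE M21. The spliced count of an intron was never below that of a longer one that contains it (0 exceptions in 33103 nested pairs). Spliced counts thus include reads that skip over the intron, in the percent retained as well. Junction use therefore took each junction's own reads, the count minus that of the next longer intron at the shared site. That was a change from the planned test made after the files were read. Own reads can still include those of a longer junction that covers the intron without using the shared site. The 8738 introns inside an intron of another gene were left out.

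Spliced reads were summed per gene and scaled to CPM. The 3 progenitor libraries of each mouse were summed for the tests. Genes were tested with edgeR 4.0.16 (quasi-likelihood, TMM) in R 4.3.3, introns and junctions with its differential splicing test on introns and sites with at least 20 reads in every animal, at an adjusted p under 0.05. Introns also needed at least 10 exon-intron reads over all animals together. Library means were compared by exact two-sided permutation tests. DESeq2 1.42.0 and limma 3.58.1 (log2 ratios with a pseudocount of 0.5) were alternatives. Named were the 10 genes, introns and junctions per direction or kind of site with the largest changes (genes without overlap and with at least 50 CPM; introns and sites with at least 100 reads), members of the lists with the smallest p, and all of the minor spliceosome and splicing regulator lists. The tests were tested on simulated data. The members and lists were chosen with earlier results of these data known. Embryos 4 to 6 and mice 1 to 3 share no number, and the libraries of 1 mouse share that mouse. Counting error alone does not cover differences between animals. A few genes that the rule would name are not reported here.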

Additional observations from a re-analysis of the deposited data

Results flagged for a closer look

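The splicing regulator gene Celf2 was at a mean of 54.2 CPM in the fibroblasts, above all 3 MEP libraries (mean 17.9 CPM) and below all CMP and GMP libraries (means of 147 and 143 CPM). It drew attention because the comparison has opposite signs by progenitor type. The difference between those comparisons was not tested, and they share the fibroblast libraries.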

How the results depend on the processing

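Counts of introns and junctions depended on the settings more than counts of genes, which stayed close to the reported ones. Of 9392 introns less retained in MEF, the count was 5178 against CMP alone, 5894 against GMP alone, 4325 against MEP alone, 5971 to 7916 with 1 animal left out, 2375 with embryo 4 alone, 2514 with limma, 1238 with limma after centring, 4801 over introns with no overlapping exon and 4870 with the 12 libraries and the animal as replicate block. Of 1244 more retained, it was 604, 744 and 768 against CMP, GMP and MEP alone, 751 to 1061 with 1 animal left out, 355 with embryo 4 alone, 676 with limma, 557 with no overlapping exon and 744 with the block. Of 5 U12-type introns less retained, 1, 2 and 1 were called against CMP, GMP and MEP alone, 1 to 3 with 1 animal left out, 10 in the knockout animals, 0 with embryo 4 alone, 0 with limma, 0 after centring, 2 at the lower of both ends, 1 with the block and 2 with an exact 5′ site. Of 8 more retained, 2 were called against CMP alone, 3 with embryo 4 alone, 3 with limma, 4 after centring and 4 with the block. Of 1218 junctions, 809 were called against CMP alone, 633 with embryo 4 alone, 834 to 1120 with 1 animal left out, 2208 with limma, 1978 with the block and 254 with the deposited nested counts. The difference in mean retention of -1.14 percentage points was -0.857 without overlapping exons and -0.644 at the lower of both ends. Directions turned for the U12-type median (-0.013 in knockout animals), the median of all introns (0.056 after centring, by construction), Celf2 (1.69 against MEP alone), the introns of Cgrrf1 (-0.72), E2f6 (-0.11), Kdm2a (0.90) and Pus10 (-0.16) in knockout animals, E2f6 at the lower end (-0.47), Mff with nested counts (-0.053) and Numb against GMP alone (0.74). Otherwise the cause was not tested. The nested counts, embryo 4 alone, the knockout animals and the exact 5′ site were chosen after seeing the data. With 3 animals a side, no library mean could reach a smaller p than 0.10, and at low depth an intron's retention rests on few exon-intron reads.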
